A study of Homo sapiens with 41 samples.

Results

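This comparison asked which genes depend on ATF4 in HMLE cells that were given no stress. It set the HMLE cells with a hairpin against ATF4 (shATF4) in DMSO against HMLE cells with a control hairpin (shCtrl) in DMSO, with 2 RNA-seq libraries in each group, 4 of the 32 RNA-seq libraries of the series. The rest of the series covers thapsigargin, AA_Dep and Twist_OE in HMLE, and the liver stellate line LX-2. HMLE is a line of human mammary epithelial cells immortalised with telomerase and the SV40 early region, and DMSO is a solvent vehicle. All 4 libraries share the line and the DMSO, and by their labels they differ in the hairpin alone. The labels use 1 name, shATF4, which does not say how many hairpins were used, and give no dose, time or hairpin sequence. An effect of ATF4 and an effect of the hairpin on other RNAs therefore cannot be told apart. No label says that replicates came from separate cultures, so the p-values measure the spread between these samples, which may be technical.

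ATF4 is a bZIP transcription factor and the main effector of the integrated stress response. Stress kinases phosphorylate the translation factor eIF2, which lowers protein synthesis in general while ATF4 mRNA is translated more, and ATF4 with its bZIP partners then turns on genes for amino acid synthesis, amino acid import, tRNA charging and feedback on the pathway. Dividing cells without added stress also hold some ATF4 protein, partly under the control of the growth kinase complex mTORC1.

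The 4 libraries held between 20456433 and 22662452 counts, and 17940 genes were tested. Log2 CPM correlated between replicates at 0.992 in shCtrl and 0.993 in shATF4, and the coefficient of biological variation over the HMLE libraries was 5.24%. The 8 epithelial markers used to check the HMLE label (basal genes such as KRT5 and TP63, and also CDH1 and EPCAM) summed to between 6288 and 7622 CPM (counts scaled to the library total) in each library. The 5 fibroblast markers summed to between 0.812 and 2.2 CPM, with PDGFRA at 0 in all 4 libraries. The 4 endothelial markers summed to between 1.457 and 1.94 CPM and the 4 leukocyte markers to between 0.044 and 0.09 CPM. The red cell markers HBB and HBA1 summed to at most 0.098 CPM. The keratins and TP63 of the HMLE label were thus present in every library, and markers of other cell types were near 0.

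ATF4 itself stood at 436 and 457 CPM in the shCtrl libraries and at 127 and 121 CPM in the shATF4 libraries (CPM here and below are TMM-normalised). The groups lay far apart, with 27.8% of the control level left. The log2 change was -1.85 ± 0.05 (standard error, as in every ± below; adjusted p = 1.5e-14). Knockdown at the RNA level was therefore clear but partial, and protein was not measured.

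With ATF4 lowered, 1090 genes rose (6.08% of those tested) and 1205 fell (6.72%), which makes 12.8% in either direction at an adjusted p under 0.05. Most of these changes were small. The median absolute log2 change was 0.30 among the genes that rose and 0.40 among those that fell, and a change of at least 1 was seen in 85 genes that rose and 137 that fell. The median over all tested genes was -0.01. Both libraries of a group lay on the same side of the other group in 2291 of the 2295 called genes, while over all tested genes shATF4 lay wholly above in 26.8% and wholly below in 27.4%. Leaving out any of the 4 libraries lowered the counts to between 474 and 752 higher and between 604 and 718 lower. By the DESeq2 Wald test 730 genes fell.

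**Figure D1:**
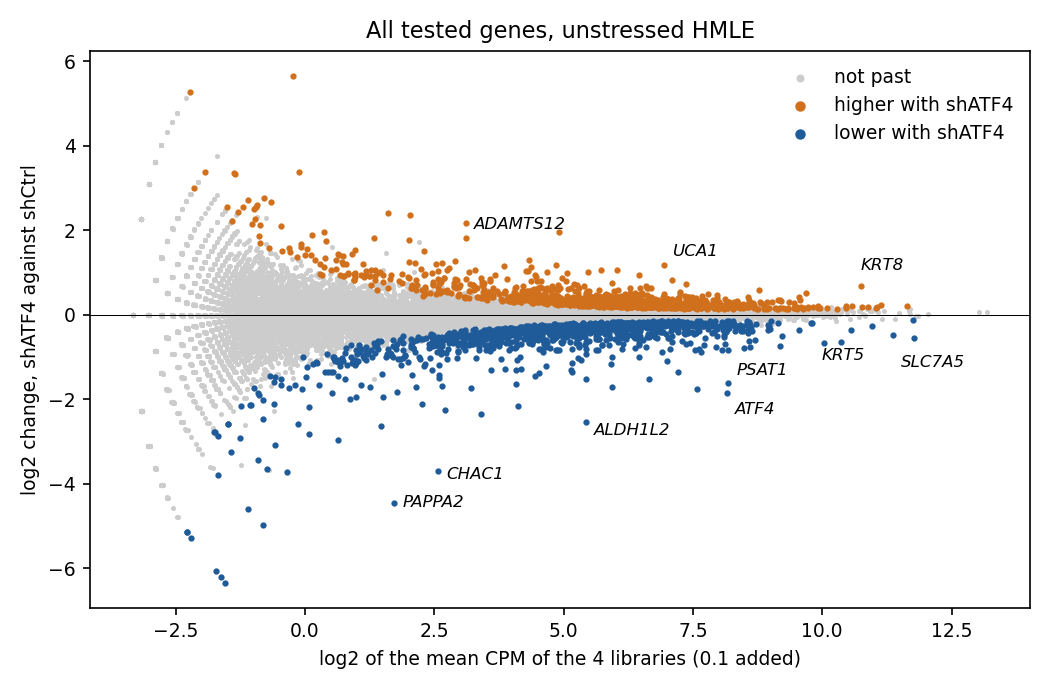
Log2 change with shATF4 (vertical axis) against the log2 mean CPM of the 4 libraries (horizontal axis, 0.1 added), 1 point per tested gene, coloured where the adjusted p was under 0.05. The named falls reach from PAPPA2 at -4.45 to KRT5 at -0.48, and the largest labelled rise is ADAMTS12 at 1.82.

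Counts of calls in the gene lists below stand beside the 6.08% of all tested genes that rose and the 6.72% that fell. The lowest median of any list belonged to the enzymes that make serine and its one-carbon products. Of 13 such genes tested, 7 fell and 0 rose. The median log2 change of the list was -0.54 against -0.01 over all tested genes, and 7 fell again whichever library was left out. All 3 steps from glycolysis to serine fell. PHGDH, the entry enzyme, stood at 295 and 296 CPM in shCtrl and at 85.1 and 88.1 CPM in shATF4. Its replicates nearly coincided and its log2 change was -1.77 ± 0.05 (adjusted p = 1.4e-14). PSAT1, the aminotransferase of the next step, went from 438 and 437 CPM to 144 and 142 CPM (log2 change -1.62 ± 0.04). PSPH, the phosphatase that ends the route, changed less, from 48.7 and 49.8 CPM to 30.4 and 28.6 CPM (-0.74 ± 0.06).

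Within the folate cycle, 4 mitochondrial enzymes fell. ALDH1L2, which oxidises formyl-folate in mitochondria, had 77.5 and 69.2 CPM in shCtrl and 12.5 and 12.6 CPM in shATF4. This was the largest fall of the list, at -2.55 ± 0.09. SHMT2 changed by -0.62 ± 0.05, MTHFD1L by -0.54 ± 0.06 and MTHFD2 by -0.40 ± 0.05. Their cytosolic counterparts SHMT1 (0.14 ± 0.06, adjusted p = 0.13) and MTHFD1 (0.16 ± 0.06, adjusted p = 0.084) had values of the opposite sign and did not pass, nor did the mitochondrial paralog MTHFD2L (0.29 ± 0.10, adjusted p = 0.070). MTHFD1 passed, as a rise, with no count filter (adjusted p = 0.013) and with the 4 DMSO libraries alone in the fit (0.021). ALDH1L1, the cytosolic counterpart of ALDH1L2, was lower with shATF4, not higher, but near the floor, and did not pass. It had 0.327 and 0.412 CPM in shCtrl and 0.194 and 0.195 CPM in shATF4 (normalised over the 8 DMSO libraries of both lines). The difference between the compartments was not tested.

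Enzymes of other amino acids moved in both directions. Among 14 genes for asparagine, proline, glutamine, alanine and branched-chain amino acids, 6 fell and 5 rose, with a median of -0.28 (5 fell and 3 or 4 rose when any library was left out). ASNS, asparagine synthetase, was at 2.27 and 2.90 CPM in shCtrl and at 0.414 and 0.23 CPM in shATF4 (-2.97 ± 0.35, adjusted p = 1.1e-05). Its level in these cells was low, so the fold rests on few counts. PYCR1, the last enzyme of proline synthesis, went from 24.96 and 25.6 CPM to 7.69 and 8.59 CPM (-1.63 ± 0.11). GPT2, the mitochondrial alanine aminotransferase, went from 154 and 155 CPM to 84.1 and 83.9 CPM (-0.88 ± 0.05). BCAT1, the cytosolic branched-chain aminotransferase, changed by -0.41 ± 0.06. BCAT2, its mitochondrial counterpart, rose from 21.0 and 23.9 CPM to 47.3 and 41.2 CPM (0.98 ± 0.10). Ornithine aminotransferase OAT rose by 0.27 ± 0.05. GOT1, the cytosolic aspartate aminotransferase, fell by 0.32.

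Genes for sulphur amino acids and glutathione fell more often than they rose, 7 against 1 of 12 tested, with a median of -0.24 (4 or 5 against 0 when any library was left out, the 4 without shATF4 replicate 1). CTH, which cleaves cystathionine to cysteine, went from 29.2 and 27.1 CPM to 6.26 and 6.30 CPM (-2.16 ± 0.09). CBS, the step before it, had 17.5 and 10.7 CPM in shCtrl and 3.55 and 4.96 CPM in shATF4. Reads of CBS can be shared with its near-identical copy CBSL, so this value is uncertain, and its call was lost without shATF4 replicate 1 (adjusted p = 0.081) or shCtrl replicate 1 (0.10). CHAC1, which degrades glutathione, showed the largest fold of the list. It had 10.7 and 11.0 CPM in shCtrl and 0.691 and 0.965 CPM in shATF4, a log2 change of -3.70 ± 0.17 (adjusted p = 5.5e-11). The glutathione synthesis genes GSS (-0.43 ± 0.06) and GCLC (-0.27 ± 0.05) fell by less.

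PCK2, the mitochondrial enzyme that makes phosphoenolpyruvate, also fell strongly, from 97.2 and 89.9 CPM to 29.8 and 27.6 CPM (-1.71 ± 0.06). It belongs to none of these lists and was among the 15 largest falls.

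ATF4 and C/EBP proteins pair on a composite DNA element whose core reads TGATGNAA. The promoters of genes that fell and that hold these letters are shown for the target and amino acid enzyme lists. They run from 250 bases before the start of the gene to 50 bases after its first base, as RefSeq gives them on GRCh38.p14, 5′ to 3′ along the gene, with the matching letters in capitals. A match on the reverse strand reads TTNCATCA.
CHAC1, chr15:40953221-40953520, plus strand: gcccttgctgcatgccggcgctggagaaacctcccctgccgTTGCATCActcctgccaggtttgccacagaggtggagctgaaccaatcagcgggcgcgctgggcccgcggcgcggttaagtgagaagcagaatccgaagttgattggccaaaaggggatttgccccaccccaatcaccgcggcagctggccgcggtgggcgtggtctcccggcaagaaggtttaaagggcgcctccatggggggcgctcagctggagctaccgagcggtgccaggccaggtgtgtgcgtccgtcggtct
ASNS, chr7:97872359-97872658, minus strand: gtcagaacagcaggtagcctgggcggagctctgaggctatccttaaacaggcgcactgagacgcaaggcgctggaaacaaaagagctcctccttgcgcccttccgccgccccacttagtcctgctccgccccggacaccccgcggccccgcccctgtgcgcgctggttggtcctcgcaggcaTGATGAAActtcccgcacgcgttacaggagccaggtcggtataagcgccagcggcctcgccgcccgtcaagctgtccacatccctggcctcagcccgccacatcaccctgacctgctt
MTHFD1L, chr6:150866236-150866535, plus strand: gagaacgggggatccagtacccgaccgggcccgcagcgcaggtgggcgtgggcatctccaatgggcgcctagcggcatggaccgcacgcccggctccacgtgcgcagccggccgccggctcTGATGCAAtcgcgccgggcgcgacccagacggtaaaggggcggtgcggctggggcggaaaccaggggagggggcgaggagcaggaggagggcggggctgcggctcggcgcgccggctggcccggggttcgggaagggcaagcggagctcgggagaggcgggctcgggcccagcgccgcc
BCAT1, chr12:24949052-24949351, minus strand: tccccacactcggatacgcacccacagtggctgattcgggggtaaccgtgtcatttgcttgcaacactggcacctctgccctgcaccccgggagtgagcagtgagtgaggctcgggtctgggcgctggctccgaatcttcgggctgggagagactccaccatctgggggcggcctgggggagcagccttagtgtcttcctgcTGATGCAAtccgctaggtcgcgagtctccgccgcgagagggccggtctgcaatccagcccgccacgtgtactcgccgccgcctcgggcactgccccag
GOT1, chr10:99430575-99430874, minus strand: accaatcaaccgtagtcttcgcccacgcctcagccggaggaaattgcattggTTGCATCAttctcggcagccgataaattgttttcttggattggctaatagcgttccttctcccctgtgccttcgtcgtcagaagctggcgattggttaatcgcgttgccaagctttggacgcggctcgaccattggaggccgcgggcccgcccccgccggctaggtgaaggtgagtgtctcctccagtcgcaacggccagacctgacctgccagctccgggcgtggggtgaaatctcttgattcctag

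The match began 209 bases before the start in CHAC1, 68 in ASNS, 129 in MTHFD1L, 48 in BCAT1 and 198 in GOT1. The element is on the forward strand of the gene in ASNS, MTHFD1L and BCAT1 and on the reverse in CHAC1 and GOT1. The letters TGATGNAA occurred on either strand in 3.67% of all 27305 RefSeq promoters of this length, in 1.87% of the 12148 tested genes with a promoter in the table, in 4.31% of the 951 that fell and in 1.33% of the 826 that rose. Among the 4 lists, 5 of 20 promoters of genes that fell held it (25%), against 2 of 21 of the genes that did not fall (9.52%). Further genes of these lists that fell had no promoter in the table and were not scanned, among them NUPR1, SLC7A11, ALDH1L2 and PYCR1. The RefSeq promoters of PHGDH and PSAT1, which fell more than MTHFD1L, do not hold these letters. A match of these letters is a description of the sequence, and binding was not measured in HMLE here.

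The wider list of stress response and ATF4 target genes had 14 falls and 2 rises among 23 tested, with a median of -0.42 (11 to 14 falls when any library was left out). The falls were uneven. NUPR1, a small stress-induced chromatin protein, went from 17.5 and 17.6 CPM to 2.95 and 3.86 CPM (-2.36 ± 0.13). JDP2, a bZIP repressor, went from 4.84 and 4.43 CPM to 0.829 and 0.643 CPM (-2.65 ± 0.20). Both groups were tight and lay wholly apart. STC2, a secreted glycoprotein, went from 64.0 and 63.6 CPM to 22.3 and 22.2 CPM (-1.52 ± 0.06), and SLC7A11, the cystine importer, from 151 and 147 CPM to 53.7 and 50.7 CPM (-1.51 ± 0.09). TRIB3, a pseudokinase that feeds back on ATF4, was at 120 and 123 CPM in shCtrl and at 71.2 and 70.9 CPM in shATF4, a smaller change of -0.78 ± 0.06.

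Several well known stress genes did not pass the threshold. SESN2, an inhibitor of mTORC1, had 15.4 and 16.4 CPM in shCtrl and 15.6 and 16.7 CPM in shATF4, with overlapping groups (0.02 ± 0.10, adjusted p = 0.93). DDIT3, which encodes CHOP, had 3.29 and 3.74 CPM against 4.24 and 2.76 CPM, with overlapping groups and an adjusted p of 1. PPP1R15A, the stress-induced eIF2 phosphatase subunit, had a log2 change of 0.15 ± 0.06 (adjusted p = 0.15, and 0.045 with the 4 DMSO libraries alone in the fit), and ATF5 had 0.07 ± 0.09 (adjusted p = 0.68). ATF3, another bZIP factor of the pathway, rose from 5.51 and 6.25 CPM to 9.03 and 9.19 CPM (0.64 ± 0.12, adjusted p = 0.0019). The ER oxidase ERO1A rose by 0.24 ± 0.06, a call lost without shATF4 replicate 2 (adjusted p = 0.062) or shCtrl replicate 1 (0.056). The bZIP partner CEBPG fell (-0.38 ± 0.06). CEBPB, another partner, also fell (-0.34 ± 0.10), but not without shATF4 replicate 1 (adjusted p = 0.42), shCtrl replicate 1 (0.25) or shCtrl replicate 2 (0.063).

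**Figure D2:**
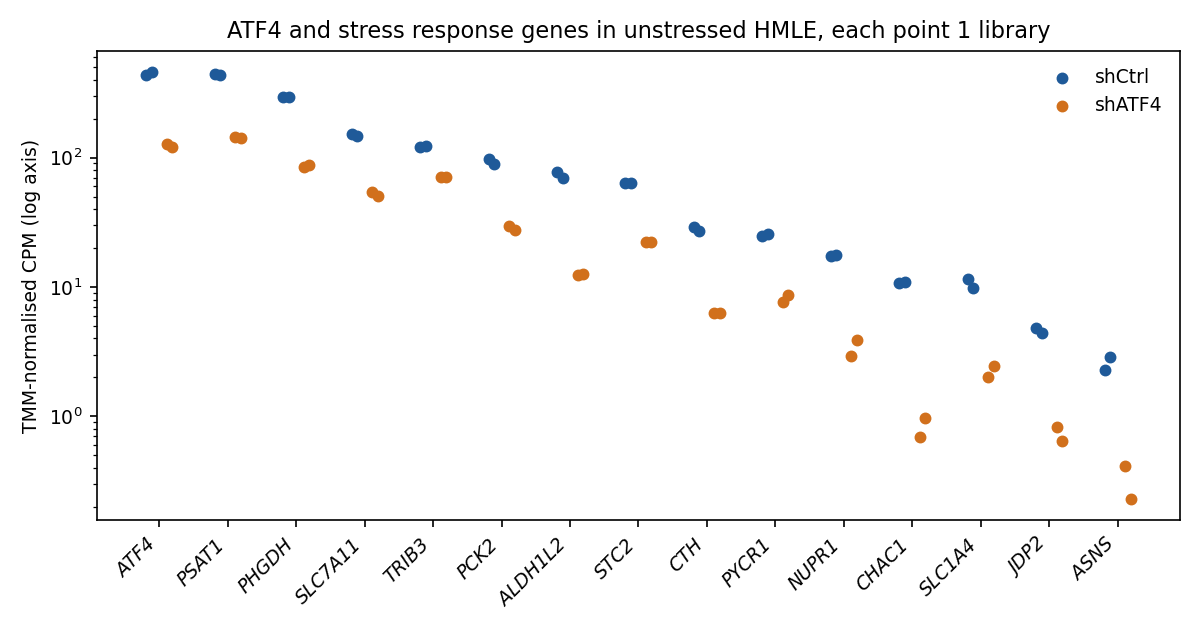
TMM-normalised CPM on a log axis for ATF4 and 14 stress response and amino acid genes, with 1 point per library, blue for shCtrl and orange for shATF4. The panel is a selection of genes that fell past the threshold, so both shATF4 points lie below both shCtrl points in each. TRIB3 is closest (120 and 123 CPM against 71.2 and 70.9 CPM). Members of the stress response list that did not pass (such as SESN2 and DDIT3) or that rose (ATF3 and ERO1A) are not shown.

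Of the 20 cytosolic aminoacyl-tRNA synthetases, which charge tRNAs with amino acids, 11 fell and 0 rose, at a median of -0.30, and 11 fell whichever library was left out. CARS1 for cysteine fell the most, from 116 and 117 CPM to 56.1 and 60.0 CPM (-1.01 ± 0.05). WARS1 for tryptophan went from 263 and 263 CPM to 143 and 140 CPM (-0.90 ± 0.05), and AARS1 for alanine from 238 and 236 CPM to 136 and 129 CPM (-0.84 ± 0.05). MARS1, YARS1, GARS1 and SARS1 fell by 0.76 to 0.83 on the log2 scale. The lysine and valine enzymes KARS1 (0.04 ± 0.05, adjusted p = 0.71) and VARS1 (-0.04 ± 0.04, adjusted p = 0.67) did not pass. Among the 17 mitochondrial synthetases 1 fell (AARS2, -0.27 ± 0.08) and 1 rose (MARS2, 0.26 ± 0.07), with a median of -0.05. The AARS2 call was lost when any of the 4 libraries was left out, with changes from -0.30 to -0.24. The MARS2 call was kept only without shCtrl replicate 1. Its change was 0.25 without shATF4 replicate 1, 0.29 without shATF4 replicate 2 and 0.19 without shCtrl replicate 2.

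Amino acid transporters were lowered in part, 10 of 21 tested, while 3 rose, with a median of -0.28 (7 to 9 falls and 1 or 2 rises when any library was left out). The largest absolute loss of any gene was in SLC7A5, the large neutral amino acid exchanger LAT1. It had 4153 and 4151 CPM in shCtrl and 2894 and 2778 CPM in shATF4 (-0.55 ± 0.04, adjusted p = 3.3e-08). Its heavy chain SLC3A2 went from 1264 and 1290 CPM to 828 and 786 CPM (-0.66 ± 0.05). Other transporters lost more in proportion. SLC43A1 had the largest log2 fall of those that passed. It did not enter the 15 largest falls, which required at least 5 CPM in 1 group and groups that did not overlap. SLC1A4, a carrier of alanine and serine, came next, from 11.5 and 9.89 CPM to 2.03 and 2.44 CPM (-2.26 ± 0.15). The glycine transporter SLC6A9 went from 30.9 and 32.8 CPM to 12.2 and 11.1 CPM (-1.45 ± 0.09). SLC7A2, a carrier of cationic amino acids, was the largest of the rises, from 9.10 and 8.16 CPM to 15.2 and 14.8 CPM (0.79 ± 0.12). SLC38A2, which imports small neutral amino acids, had 0.09 ± 0.05 (adjusted p = 0.22).

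Translation control and ER quality control were examined next, against 6.08% of all tested genes that rose and 6.72% that fell. Of 13 genes that restrain mTORC1 or its output 5 fell and none rose (2 or 3 fell when any library was left out). EIF4EBP1, which holds back cap-dependent translation, went from 205 and 201 CPM to 128 and 122 CPM (-0.70 ± 0.06), EIF4EBP2 changed by -0.55 ± 0.05, and DDIT4 by -0.28 ± 0.06 (adjusted p = 0.0063). DDIT4 lost its call without shATF4 replicate 2 (0.082) or shCtrl replicate 2 (0.13). Of 20 genes for the eIF2 kinases, phosphatases and eIF2B, 3 rose and 2 fell (0 to 3 and 1 or 2 when any library was left out), with changes between -0.37 and 0.23. Of 23 ER chaperone and degradation genes, 3 fell and 1 rose, with a median of -0.06 (at most 1 fell when any library was left out). HSPA5, the chaperone BiP, stood at 1247 and 1251 CPM against 1218 and 1152 CPM (-0.08 ± 0.05, adjusted p = 0.37), while the disulphide isomerase P4HB rose from 351 and 351 CPM to 530 and 515 CPM (0.57 ± 0.04). Among 22 NRF2 antioxidant genes 9 fell and 0 rose (median -0.12), but 3 to 6 fell when any library was left out. SLC7A11 and GCLC are counted in this list and in those above.

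**Figure D3:**
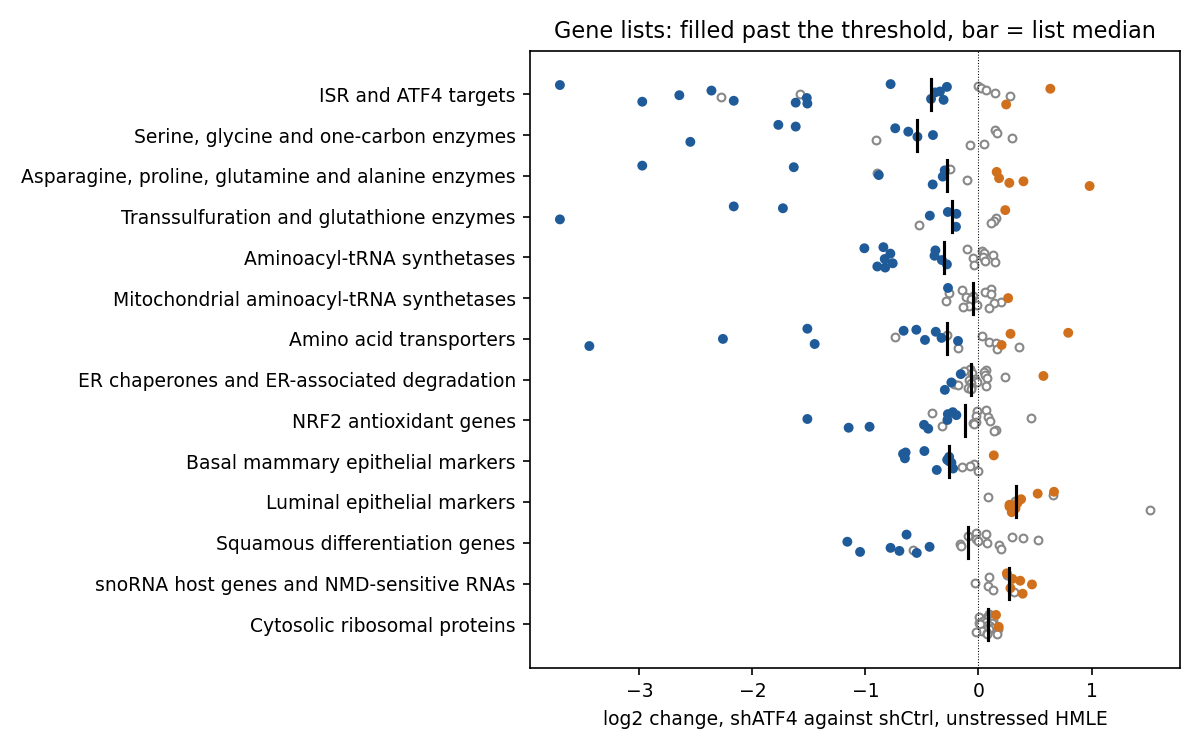
Log2 change with shATF4 for every tested member of 14 gene lists (rows), filled blue for falls and orange for rises past an adjusted p of 0.05, open grey for the rest, with a black bar at the list median. List medians run from -0.54 for serine, glycine and one-carbon enzymes to 0.34 for luminal markers.

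Outside these lists the largest falls included secreted and developmental genes. PAPPA2, a protease of insulin-like growth factor binding proteins, had 5.73 and 6.59 CPM in shCtrl and 0.23 and 0.322 CPM in shATF4, the largest fall among genes with at least 5 CPM (-4.45 ± 0.31). STRA6, the retinol uptake receptor, went from 7.99 and 7.28 CPM to 2.12 and 1.38 CPM (-2.12 ± 0.21). BCHE, butyrylcholinesterase, fell by 1.84 and the zinc finger factor TSHZ3 by 1.72. TFE3, a bHLH factor of lysosome and autophagy genes, went from 53.6 and 56.5 CPM to 26.0 and 26.1 CPM (-1.08 ± 0.07). CCND1, cyclin D1, went from 479 and 496 CPM to 287 and 286 CPM (-0.77 ± 0.05). Of 29 cell cycle genes 3 rose and 3 fell, against 6.08% and 6.72% of all tested genes, and fewer rose when any library was left out.

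The largest rises were genes of varied function. ADAMTS12, a matrix protease, had 4.22 and 3.25 CPM in shCtrl and 12.6 and 14.02 CPM in shATF4 (1.82 ± 0.15). CXADR, a junction protein and virus receptor, went from 2.22 and 1.33 CPM to 6.31 and 5.97 CPM (1.77 ± 0.21). UCA1, a long noncoding RNA, was the most abundant of the 15 largest rises, from 71.2 and 79.2 CPM to 173 and 168 CPM (1.18 ± 0.05, adjusted p = 3.6e-11). STC1, the paralog of STC2, rose from 4.04 and 4.57 CPM to 10.3 and 10.6 CPM (1.28 ± 0.12), opposite to STC2. MITF, related to TFE3, rose from 13.1 and 12.6 CPM to 29.9 and 26.8 CPM (1.14 ± 0.10), opposite to TFE3. PTGS2, the inducible cyclooxygenase, rose by 1.17 ± 0.10 and NLRP3, the inflammasome sensor, by 1.10 ± 0.14. SERF1B showed a larger fold, but its shCtrl values were 4.71 and 1.48 CPM and reads can be shared with its copy SERF1A, so it is uncertain. Processed pseudogenes of ATF4, ASNS, KRT8 and KRT18 may also share reads with them, and how such reads were counted is not given in the sources used here.

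Among epithelial lineage genes, basal markers mostly fell and luminal markers mostly rose where they passed. Over all tested genes 6.72% fell and 6.08% rose. Of 15 basal mammary markers 10 fell and 1 rose, with a median of -0.26, and of 12 luminal markers 8 rose and none fell, with a median of 0.34. When any library was left out, 7 to 9 basal markers fell and 5 to 8 luminal markers rose, with 5 without shATF4 replicate 2 or shCtrl replicate 2. KRT5, the main basal keratin, had 3047 and 3082 CPM in shCtrl and 2218 and 2181 CPM in shATF4 (-0.48 ± 0.04, adjusted p = 3.9e-08). KRT8, a simple epithelial keratin, had 1352 and 1295 CPM in shCtrl and 2128 and 2078 CPM in shATF4 (0.67 ± 0.05, adjusted p = 1.1e-08). The groups of both genes lay wholly apart, and in opposite order. The list of epithelial junction and identity genes was split: of 21 tested, 3 rose and 4 fell, with a median of 0.05. Its rises EPCAM and CLDN4 are also counted as luminal, and CDH1 and JUP did not pass.

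KRT18, the partner of KRT8, rose from 690 and 664 CPM to 996 and 950 CPM (0.52 ± 0.04). The surface proteins EPCAM (0.38 ± 0.06) and CD24 (0.34 ± 0.05), which the list counts as luminal, also rose. The luminal keratins KRT7 and KRT19 did not pass. KRT15 changed by -0.65 ± 0.06, and TP63, the master factor of basal cells, by -0.28 ± 0.06. The TP63 call was narrowly lost without shATF4 replicate 1 (adjusted p = 0.053), shATF4 replicate 2 (0.064) or shCtrl replicate 1 (0.052). KRT14, the usual partner of KRT5, was the basal marker that rose, by 0.14 ± 0.04, and its call was lost when any library was left out (adjusted p = 0.082 to 0.18). KRT6A fell by 0.64, a value that reads shared with its close paralogs can affect. Of 21 squamous differentiation genes 7 fell and none rose, led by KRT16, from 79.7 and 86.2 CPM to 37.7 and 36.5 CPM (-1.16 ± 0.06), and the proteases KLK6 (-1.05 ± 0.13) and KLK5 (-0.70 ± 0.06). In these bulk libraries a shift in the share of cells and a shift in RNA per cell cannot be told apart. Of 20 mesenchymal genes 3 rose and 3 fell (2 rose and 1 or 2 fell when any library was left out), with CDH2 (N-cadherin) going from 4.22 and 4.38 CPM to 8.89 and 8.96 CPM (1.05 ± 0.11) and SNAI2, a factor of basal and mesenchymal cells, from 50.1 and 55.3 CPM to 31.5 and 32.9 CPM (-0.71 ± 0.06).

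**Figure D4:**
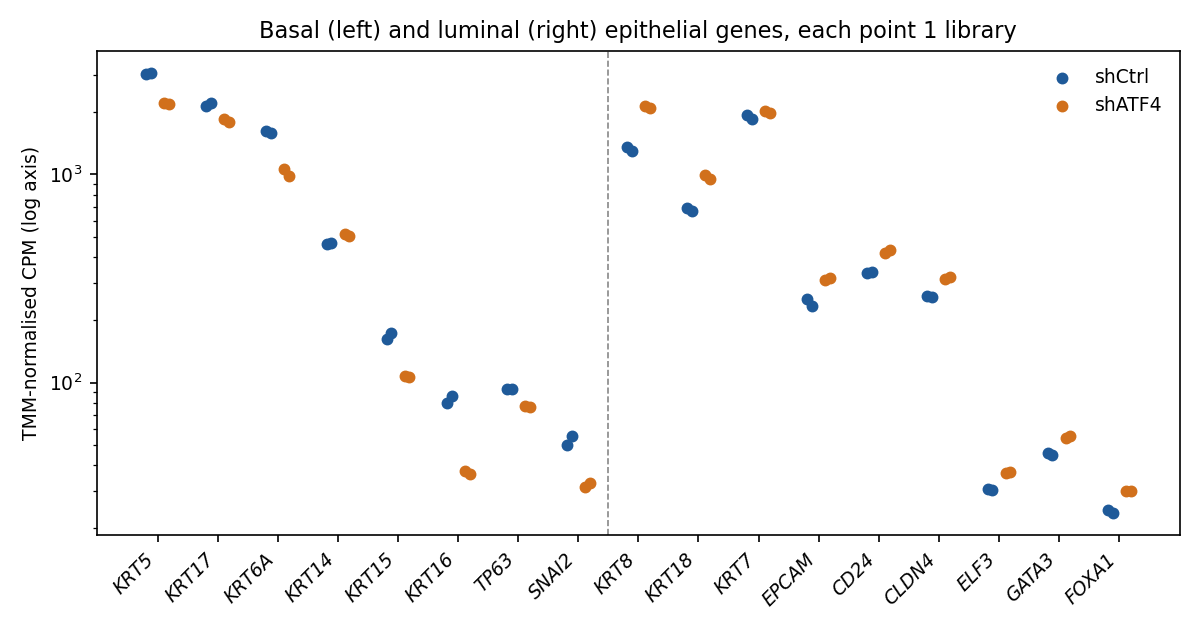
TMM-normalised CPM on a log axis for 8 genes titled basal (left of the dashed line) and 9 luminal genes (right). Each point is 1 library, blue for shCtrl and orange for shATF4. On the left, KRT16 is from the squamous list and SNAI2 from the mesenchymal list. The panel is a selection: other basal and luminal list members are not shown, some past the threshold and some not (such as CDH3, SFN, KRT19 and MUC1). KRT5 drops from 3047 and 3082 to 2218 and 2181 CPM while KRT8 climbs from 1352 and 1295 to 2128 and 2078 CPM, and KRT7 did not pass the threshold.

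Cytokine and chemokine genes and snoRNA host genes were higher where they passed, while the NF-kB and immediate-early lists were split. Counts stand beside the 6.08% of all tested genes that rose and the 6.72% that fell. Of 16 NF-kB subunits and feedback genes 1 rose and 1 fell, with a median of 0.15. Of 17 AP-1 and EGR immediate-early genes 2 rose and 2 fell, with a median of -0.13. Of 27 cytokine and chemokine genes 9 rose and none fell, with a median of 0.23 (5 without shCtrl replicate 1, 6 without shATF4 replicate 2). The largest called changes, the rises of CXCL6 and CCL28, lay near the floor. They reached at most 0.681 and 1.80 CPM in these libraries (normalised over the 8 DMSO libraries of both lines). CXCL1 went from 5.86 and 5.07 CPM to 10.4 and 8.92 CPM (0.81 ± 0.13). The cytokine IL32 went from 8.44 and 7.72 CPM to 13.4 and 13.6 CPM (0.74 ± 0.11), and the alarmin IL1A from 49.7 and 52.97 CPM to 62.4 and 76.4 CPM (0.44 ± 0.08). Of 12 snoRNA host genes and RNAs sensitive to nonsense-mediated decay, a surveillance path that eIF2 phosphorylation is known to inhibit, 6 rose and none fell, with a median of 0.27 (3 to 6 rose when any library was left out, the 3 without shATF4 replicate 2), SNHG7 by 0.37 ± 0.08. Of 24 p53 targets and CDK inhibitors 6 rose and none fell, with a median of 0.09 (4 or 5 rose when any library was left out). PMAIP1 (NOXA), an inducer of apoptosis, went from 60.9 and 61.3 CPM to 83.7 and 86.4 CPM (0.48 ± 0.05). Of 25 hypoxia and glycolysis genes 7 rose and 4 fell (4 or 5 and 3 when any library was left out), with carbonic anhydrase CA9 at 0.94 ± 0.09 and the glucose carrier SLC2A3 at -0.61 ± 0.10. Of 25 cholesterol genes 4 rose and 0 fell (median 0.04).

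The unstressed change was then set against the change seen under the same hairpin label in the other HMLE conditions. Thapsigargin empties the calcium store of the ER, which triggers ER stress. AA_Dep is read here as amino acid deprivation, and Twist_OE as overexpression of the EMT factor Twist. The shATF4 AA_Dep group has 1 distinct library, because both of its files hold the same values, and its spread was taken to equal that of the rest. A difference here is the log2 change in the other condition minus that in DMSO, and both use the DMSO libraries.

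ATF4 was higher in stressed shCtrl cells, at 716 and 667 CPM in thapsigargin and 878 and 891 CPM in AA_Dep, while with shATF4 it stayed between 104 and 129 CPM across DMSO, thapsigargin and AA_Dep. Its log2 change was larger under stress, -2.72 in thapsigargin and -2.78 in AA_Dep, with differences of -0.87 ± 0.07 (adjusted p = 3.6e-07) and -0.93 ± 0.08 (adjusted p = 4.3e-07).

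The difference passed the threshold in 818 genes for thapsigargin (4.56% of those tested) and in 914 for AA_Dep (5.09%). For thapsigargin 388 differences were positive (2.16%) and 430 negative (2.4%), and leaving out any library gave 210 to 555 and 289 to 506. For AA_Dep 537 were positive (2.99%) and 377 negative (2.1%), and leaving out any of the 4 DMSO or the 2 shCtrl AA_Dep libraries gave 314 to 399 and 241 to 375. The single shATF4 AA_Dep library could not be left out. The stress response list had 20 of 23 genes lower with shATF4 in thapsigargin, where 11.9% of all genes fell, and 19 in AA_Dep, where 7.09% fell, against 14 in DMSO. The median of the list was -2.10 in thapsigargin and -2.74 in AA_Dep against -0.42 in DMSO. The difference itself was negative past the threshold in 14 and 13 of its genes.

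SESN2 is an example. Its shCtrl level was 15.4 and 16.4 CPM in DMSO and 142 and 142 CPM in thapsigargin, and with shATF4 it was 34.2 and 32.1 CPM in thapsigargin. The difference of its knockdown change was -2.12 ± 0.12 in thapsigargin and -2.05 ± 0.14 in AA_Dep (adjusted p = 4.5e-09 and 2.8e-08). TRIB3 went the same way, with differences of -1.98 ± 0.08 and -2.37 ± 0.09, as did DDIT4 with -1.21 ± 0.09 and -2.80 ± 0.11 and STC2 with -1.66 ± 0.08 and -1.99 ± 0.10. PSAT1, already low without stress, differed by -0.68 ± 0.06 and -1.29 ± 0.07.

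CHAC1 had log2 changes of -3.70 in DMSO and -3.79 in thapsigargin. Its shCtrl level was 10.7 and 11.0 CPM in DMSO and 154 and 152 CPM in thapsigargin, and with shATF4 it was 0.691 and 0.965 CPM and 12.0 and 10.2 CPM. The difference was -0.09 ± 0.28 in thapsigargin (adjusted p = 0.94) and -0.80 ± 0.28 in AA_Dep (adjusted p = 0.13). ALDH1L2 likewise had -0.16 ± 0.12 (adjusted p = 0.57) and -0.06 ± 0.14 (adjusted p = 0.90). These standard errors leave room for moderate differences in CHAC1.

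Some changes were seen under stress and not in DMSO. The interferon-induced genes MX1 and IFI6 stood at 109 and 134 CPM in the shATF4 AA_Dep library, against 10.9 and 13.1 CPM for MX1 and 23.7 and 18.3 CPM for IFI6 in shCtrl AA_Dep. In DMSO neither passed the threshold (0.02 ± 0.17 and -0.56 ± 0.19). Their differences were 3.17 ± 0.21 and 3.23 ± 0.23, and both rest on that 1 library.

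Twist_OE altered far more. The difference passed in 5328 genes (29.7%), 2929 positive (16.3%) and 2399 negative (13.4%), and 47.2% of all tested genes changed with shATF4 within Twist_OE. In that state shATF4 lowered ATF4 by less (-0.97, difference 0.88 ± 0.07). The stress response list had 15 of 23 genes lower with shATF4 in Twist_OE, where 23.9% of all genes fell, and 5 higher, with a median of -0.58. Its difference from DMSO was positive past the threshold in 9 genes and negative in 3. TRIB3, DDIT4 and SLC7A5 were among the genes that turned: they were lower with shATF4 in DMSO and higher with it in Twist_OE, at 0.60, 1.17 and 0.84, with differences of 1.38 ± 0.08, 1.45 ± 0.09 and 1.39 ± 0.06. Epithelial genes moved beside these: KRT5 was at 233 and 232 CPM in shCtrl Twist_OE and at 2625 and 2571 CPM in shATF4 Twist_OE, and EPCAM at 5.38 and 4.85 CPM against 191 and 188 CPM. The part of that shift in the other differences was not tested.

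**Figure D5:**
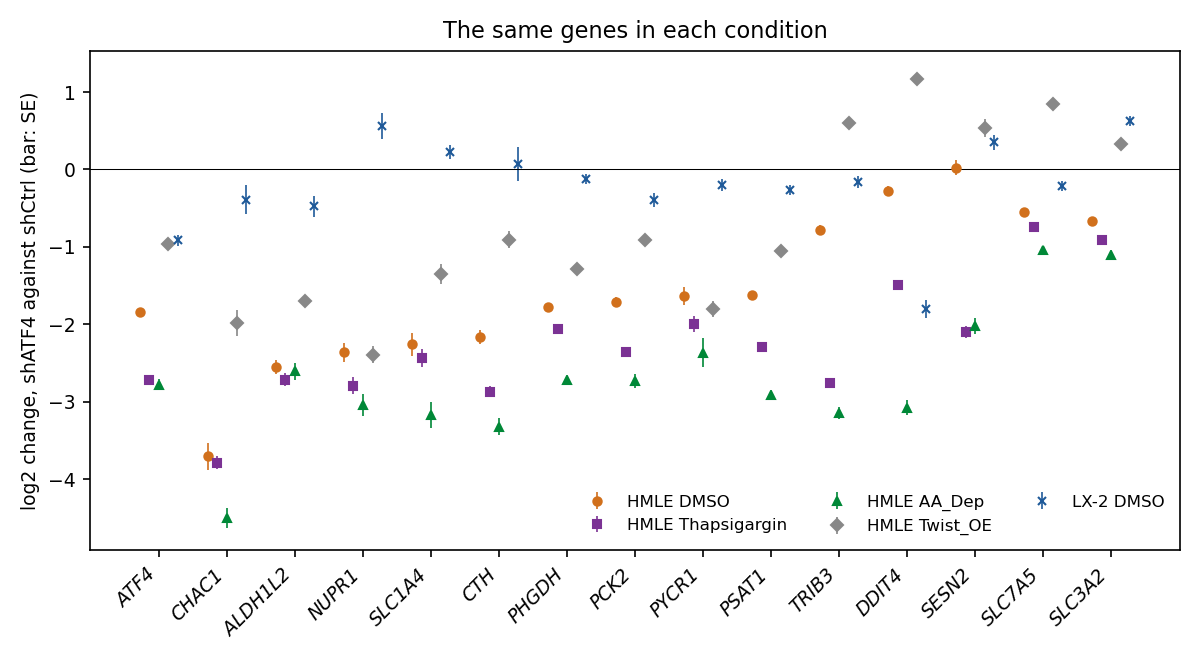
Log2 change with shATF4 against shCtrl (vertical axis, bars: standard error) for 15 genes in the 4 HMLE conditions and in LX-2 DMSO, 1 marker per condition. SESN2 sits at 0.02 in HMLE DMSO and near -2 under thapsigargin and AA_Dep, while CHAC1 is at -3.70 in DMSO and -3.79 in thapsigargin.

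The DMSO calls were shared in part with the other conditions, whose libraries are separate. With shATF4, 12.3% of all tested genes rose in thapsigargin, 9.77% in AA_Dep and 23.3% in Twist_OE, and 11.9%, 7.09% and 23.9% fell. Of the 1205 genes that fell in DMSO, 778 also fell in thapsigargin (64.6% of the DMSO list and 36.3% of the thapsigargin list), 525 in AA_Dep (43.6% and 41.3%) and 666 in Twist_OE (55.3% and 15.5%). Of the 1090 that rose, 680 also rose in thapsigargin (62.4% and 30.7%), 553 in AA_Dep (50.7% and 31.5%) and 644 in Twist_OE (59.1% and 15.4%). Calls of opposite sign were few in thapsigargin, 24 of the rises (2.2%) and 34 of the falls (2.82%). In AA_Dep they were 9 (0.826%) and 37 (3.07%). They were more frequent in Twist_OE, 191 (17.5%) and 257 (21.3%). There 23.9% of all tested genes fell and 23.3% rose.

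The same hairpin label in unstressed LX-2 cells, a line of hepatic stellate cells, was compared last. Among genes tested in both fits, 354 of 1087 DMSO rises (32.6%, and 18.7% of the LX-2 rises) were shared with LX-2. Of 1196 DMSO falls 349 were shared (29.2%, and 17.9% of the LX-2 falls). Calls of opposite sign in LX-2 were 111 of the rises (10.2%) and 91 of the falls (7.61%). In LX-2 11.8% of all tested genes fell and 11.5% rose. In the joint fit of the 8 DMSO libraries the ATF4 change was -1.85 in HMLE and -0.92 in LX-2, a difference of HMLE minus LX-2 of -0.92 ± 0.10 (adjusted p = 1.6e-05). The difference between lines passed in 1625 of 17157 genes (9.47%), 811 positive (4.73%) and 814 negative (4.74%). Leaving out any library gave 381 to 1761 positive and 379 to 1468 negative, with the highest counts without LX-2 shCtrl replicate 1. Among the stress response genes 3 of 22 fell in LX-2, where 11.8% of all tested genes fell, and 9 rose, where 11.5% of all rose, with a median of 0.04. These LX-2 counts come from the 8-library fit, and the 14 falls of 23 in HMLE from the HMLE fit. The line difference itself was negative past the threshold in 12 of the 22 genes and positive in 1.

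PHGDH in LX-2 was at 162 and 185 CPM in shCtrl and at 159 and 159 CPM in shATF4 (-0.13 ± 0.07, adjusted p = 0.20), and the difference between lines was -1.64 ± 0.10. For CHAC1 the difference was -3.30 ± 0.30, for NUPR1 -2.91 ± 0.23 and for PSAT1 -1.35 ± 0.09. DDIT4 went the other way: it fell by 1.80 in LX-2, from 14.4 and 15.1 CPM to 4.06 and 4.37 CPM, and the difference was 1.53 ± 0.14. KRT8, which rose in HMLE, had 451 and 506 CPM in LX-2 shCtrl and 245 and 230 CPM in LX-2 shATF4, with a difference of 1.69 ± 0.09. The smaller loss of ATF4 RNA in LX-2 stands beside every one of these differences, and its part in them was not tested. CPM in this paragraph are normalised over the 8 DMSO libraries. With all libraries of both lines in the fit the values of ATF4, PHGDH, PSAT1, NUPR1 and KRT8 kept their sign and lay between -2.91 and 1.69, but no longer passed (adjusted p from 0.11 to 0.47), and 31 genes had a positive and 45 a negative difference. That fit includes the library labelled LX-2 shCtrl Thapsigargin replicate 2, which had counts in 15840 genes against 21930 to 24255 in the others, and its part in the lost calls was not tested.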

How the data were processed

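The authors deposited raw counts per gene for 32 RNA-seq libraries (SMARTer mRNA-Seq kit, per the labels' protocols) of HMLE and LX-2 cells. The submitters' processing notes list cutadapt, Bowtie2, STAR, HOMER, featureCounts and DESeq and the builds hg19 and hg38, without versions or roles, and strand use and the handling of multi-mapped reads are not given in the sources used here. Of 58735 gene identifiers 58207 had a symbol in the name table. The ChIP-seq libraries and the TGFbeta, thapsigargin and AA_Dep libraries of LX-2 entered no reported comparison, except that the last 3 groups joined 1 alternative fit.

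Counts were tested with edgeR 4.0.16 (limma 3.58.1, R 4.3.3): filterByExpr, TMM, glmQLFit and glmQLFTest with 1 coefficient per group, and Benjamini-Hochberg adjustment over all tested genes at 0.05. The fit took 15 distinct HMLE libraries, since both HMLE shATF4 AA_Dep files hold the same values and were counted as 1 sample. Differences between conditions were tested as interaction contrasts in that fit, and those between lines in a fit of the 8 DMSO libraries. The standard error of a log2 change is its size divided by the square root of F. The HMLE DMSO libraries hold 20456433 to 22662452 counts, so genes near 1 CPM rest on about 20 counts per library.

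The comparison and the gene lists were chosen with earlier results of these data known. Named genes are ATF4, up to 4 called members of each list with the largest changes and up to 2 others with the highest CPM, the 15 largest rises and falls among genes that reach 5 CPM in 1 group, and the 5 largest rises and falls in CPM. Genes whose condition or line contrasts are given, and further list members such as MTHFD2L, CBS, KRT14, MX1 and IFI6, were added after their values were seen. Promoters came from the RefSeq table (GRCh38.p14), which covers 12148 of the tested genes. Alternatives were DESeq2 1.42.0 (Wald test, or its size factors in edgeR), no count filter, a replicate block, fewer or more libraries in the fit, a log2 change of at least 1, and each library left out in turn. The fitting script was tested on simulated data.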

Additional observations from a re-analysis of the deposited data

Results flagged for a closer look

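Each result here is a change with shATF4 that differed between HMLE DMSO and another setting by an interaction test past an adjusted p of 0.05. Between thapsigargin and DMSO this held for 818 genes, among them ATF4 (-0.87, as the log2 change in thapsigargin minus that in DMSO), TRIB3 (-1.98), SESN2 (-2.12), DDIT4 (-1.21), STC2 (-1.66) and PSAT1 (-0.68). Between AA_Dep and DMSO it held for 914 genes. There ATF4 differed by -0.93, TRIB3 by -2.37, SESN2 by -2.05, DDIT4 by -2.80, STC2 by -1.99 and PSAT1 by -1.29. MX1 (3.17) and IFI6 (3.23) had the opposite sign in AA_Dep, and all AA_Dep values rest on 1 distinct shATF4 library.

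Between Twist_OE and DMSO the test passed for 5328 genes, with ATF4 at 0.88, TRIB3 at 1.38, DDIT4 at 1.45 and SLC7A5 at 1.39. Between HMLE and LX-2 in DMSO it passed for 1625 genes. The HMLE minus LX-2 differences were -0.92 for ATF4, -3.30 for CHAC1, -2.91 for NUPR1, -1.64 for PHGDH, -1.35 for PSAT1, 1.69 for KRT8 and 1.53 for DDIT4.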

How the results depend on the processing

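The 1090 rises and 1205 falls in HMLE DMSO became 933 and 730 by the DESeq2 Wald test, 1317 and 1069 with DESeq2 size factors, 1376 and 1063 with no count filter, 1489 and 1399 with the 4 DMSO libraries alone, and 85 and 137 at a log2 change of at least 1. Leaving out 1 library gave 474 to 752 rises and 604 to 718 falls, with 1 sample left in a group that was assumed to vary like the others. All 2295 called genes kept their sign in each alternative that used all HMLE libraries. For thapsigargin the DESeq2 test gave 229 positive differences, and leaving out 1 library gave 210 to 555 positive and 289 to 506 negative. For AA_Dep 621 were negative with no count filter, and leaving out 1 library other than the shATF4 AA_Dep library gave 314 to 399 positive and 241 to 375 negative. For Twist_OE leaving out 1 library gave 2523 to 2752 positive and 1960 to 2312 negative. Between lines all libraries in the fit gave 31 positive and 45 negative, and leaving out 1 library gave 381 to 1761 and 379 to 1468. The causes were not tested.

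With the replicate block 1314 genes rose and 1375 fell. The labels do not say whether same-numbered libraries were handled together. The deviations of same-numbered HMLE shATF4 and shCtrl DMSO libraries correlated at 0.0218. Those of other pairs of HMLE groups ran from -0.0177 to 0.101.

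Leaving out shATF4 replicate 1, shATF4 replicate 2 or shCtrl replicate 1 kept the sign of 2294 of the 2295 called genes. The named values that changed sign had not passed the threshold. DDIT3 in DMSO was 0.0170 by the DESeq2 test, 0.0174 with DESeq2 size factors and 0.0193 with no count filter, and it ran from -0.33 to 0.27 when 1 library was left out, positive without shATF4 replicate 2 or shCtrl replicate 2. With 1 library left out SESN2 ran from -0.0270 to 0.0839 and MX1 from -0.13 to 0.17, both negative without shATF4 replicate 2 or shCtrl replicate 1. The ALDH1L2 difference in AA_Dep ran from -0.15 to 0.0195, positive without shCtrl DMSO replicate 2. The CHAC1 difference in thapsigargin ran from -0.33 to 0.17, positive without shATF4 DMSO or Thapsigargin replicate 2. Genes at a few CPM, such as ASNS and DDIT3, are the ones that depth limits.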

Other observations

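The remaining gene lists are read against the 6.08% of all tested genes that rose and the 6.72% that fell in unstressed HMLE cells. Of 12 stress-induced secreted factors 3 rose and 3 fell, with a median log2 change of -0.03. Of 10 fatty acid synthesis genes 2 rose and 1 fell, with a median of 0.03. Of 10 fibroblast, endothelial and blood markers, all near the floor, 0 rose and 2 fell. Of 25 cytosolic ribosomal protein genes 2 rose and 0 fell, with a median log2 change of 0.09. The rises numbered 0 or 1 when any library was left out, 5 with DESeq2 size factors, 6 by the DESeq2 test, and 10 with no count filter or with the 4 DMSO libraries alone. Of 13 mitochondrially encoded genes 1 rose and 0 fell, with a median of 0.19. None rose when any library was left out, while 10 rose with no count filter and 7 with the 4 DMSO libraries alone.

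Of 29 bZIP factors and ATF4 partners 3 rose and 6 fell, at a median of -0.09 (2 rose and 4 to 6 fell when any library was left out). Of 19 autophagy and lysosome genes 1 rose and 5 fell, at a median of 0.01 (at most 1 rose, none without shCtrl replicate 2, and 3 to 5 fell, with 3 without shATF4 replicate 2). Of 18 BCL2 family and death receptor genes 3 rose and 0 fell, at a median of -0.03 (2 or 3 rose when any library was left out).

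Of 18 matrix proteases and their inhibitors 4 rose and 7 fell, at a median of -0.19 (2 or 3 rose and 4 or 5 fell when any library was left out). Of 25 collagens and matrix proteins 3 rose and 7 fell, at a median of -0.04 (1 rose and 1 to 6 fell when any library was left out, with 1 fall without shATF4 replicate 2). Of 25 interferon-stimulated genes 5 rose and 1 fell, at a median of 0.08 (2 to 5 rose when any library was left out, with 2 without shATF4 replicate 2). Of 22 genes of the TGF-beta response 2 rose and 4 fell, at a median of -0.01 (1 or 2 rose and 3 fell when any library was left out).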
